A study of Zea mays with 10 samples.

Results

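The basal endosperm transfer layer is the band of endosperm cells next to the maternal pedicel, through which sugars and other nutrients enter the maize kernel. Its cells carry wall ingrowths and make a set of small secreted proteins, and the single-MYB-repeat factor MRP1 is known to activate several of these genes. 6 gene IDs of this layer were followed: the secreted peptide genes BETL1 (GRMZM2G082785), BETL9 (GRMZM2G087413) and MEG1 (GRMZM2G354335), the regulator gene MRP1 (GRMZM2G111306), the response regulator gene TCRR1 (GRMZM2G016145) and the cell wall invertase gene mn1 (GRMZM2G119689). They are a fixed set of IDs known for this place of expression, and the set was drawn up with earlier results of these data known. 5 of the 6 IDs were measured among the 28580 genes of the expression table, and TCRR1 was not analysed here.

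Endosperm was dissected 15 days after self-pollination from greenhouse plants of B73o2, which carries an opaque-2 mutation in B73 (called o2), and of the inbred line B73 itself (called WT), with 3 polyadenylated RNA libraries each. O2 is a bZIP factor of the endosperm that activates storage protein genes, and which mutant allele was used is not stated in the labels. The question was whether loss of O2 changes the RNA of these genes, and whether MRP1 and the other members move together from library to library. The labels number the libraries without saying whether they came from separate plants, so a p-value here speaks for these libraries and their spread, part of which may be technical.

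Uniquely mapped reads numbered 42437810 to 48169603 in the o2 libraries and 28614800 to 37199016 in the WT libraries. The o2 gene had 0.173 to 0.254 RPKM (reads scaled to gene length and library size) in o2 and 86.1 to 163 RPKM in WT, lower in all 3 o2 libraries. RPKM values stepped in whole reads, which allowed the number of counted reads to be recovered for 28534 genes, all 5 members included. WT replicate 3 stood apart: it had the fewest uniquely mapped reads and its RPKM summed to 2588142, against 696998 and 1318538 in the other WT libraries, while the o2 libraries summed to between 207265 and 264780. Its median gene, at 1.60 RPKM, was close to those of the o2 libraries (1.56 to 1.57 RPKM) and of the other WT libraries (1.56 and 1.58 RPKM). Fold changes, spreads, proportions and correlations of the members are also given without it, as a choice made after seeing the data. The part of these library differences in the results was not tested.

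Over all 6 libraries the members differed far more between libraries of one genotype than between genotypes. Without WT replicate 3 this held less strongly for all members but MRP1. All 5 members were lowest in replicate 3 of both genotypes, and within its own genotype each was highest in o2 replicate 2 and in WT replicate 1. Among the 18687 genes tested, 14.5% were lowest in replicate 3 of both genotypes and 1.86% had this whole pattern. The pattern was seen in the values and is a description. In bulk tissue, fewer transfer cells and less RNA per cell cannot be told apart.

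BETL1, a defensin-like secreted peptide gene and a known target of MRP1, was among the most abundant members. It had 31.4, 130 and 14.0 RPKM in o2 replicates 1 to 3, against 127, 39.9 and 2.94 RPKM in WT replicates 1 to 3. The highest library in each genotype was alike and the lowest library of all was a WT one, so that the groups overlapped. Across the 6 libraries BETL1 spanned 44.2-fold, with 9371 counted reads in o2 replicate 2 and 107 in WT replicate 3. It spanned 9.27-fold without WT replicate 3.

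BETL9, another gene named for this layer, had 34.2, 99.1 and 26.3 RPKM in o2 replicates 1 to 3, against 169, 40.3 and 3.22 RPKM in WT replicates 1 to 3. Its o2 values all lay inside the WT range, but without WT replicate 3 those of o2 replicates 1 and 3 lay below that range. The span was 3.77-fold in o2 and 52.4-fold in WT, or 4.19-fold in WT without replicate 3.

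MEG1, a maternally expressed gene for a secreted cysteine-rich peptide, had 1.28, 2.75 and 0.536 RPKM in o2 replicates 1 to 3, against 6.22, 1.67 and 0.0540 RPKM in WT replicates 1 to 3. Here too the o2 values lay within the WT range, and without WT replicate 3 those of o2 replicates 1 and 3 lay below that range. In WT replicate 3 the value rested on 6 counted reads (exact 95% Poisson interval 2.20 to 13.1 reads, counting error only). MEG1 belongs to a family of similar genes, and reads that map to several of them make its single values uncertain.

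The invertase gene mn1, whose product splits incoming sucrose in the cell wall of the transfer cells, had 4.84, 6.08 and 2.21 RPKM in o2 replicates 1 to 3, against 13.4, 4.43 and 0.0143 RPKM in WT replicates 1 to 3. WT replicate 3 held 4 counted reads (exact 95% Poisson interval 1.09 to 10.2 reads), where WT replicate 1 held 5447. The span of mn1 was 2.75-fold in o2 and 940-fold in WT, or 3.03-fold in WT without replicate 3. Over the 5 libraries other than WT replicate 3 the members spanned between 5.47-fold for MRP1 and 11.6-fold for MEG1, with 6.07-fold for mn1.

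The regulator gene MRP1 was the least abundant member in all 6 libraries. It had 1.11, 1.23 and 0.380 RPKM in o2 replicates 1 to 3, against 1.78, 0.326 and 0 RPKM in WT replicates 1 to 3. These values stand for 267, 262 and 77 counted reads in o2 and for 278, 55 and 0 in WT. A count of 0 reads in WT replicate 3 allows up to 3 reads, or 0.0279 RPKM, so MRP1 was at least 64.0-fold lower there than in WT replicate 1. The value of o2 replicate 3, 0.380 RPKM, lay close to that of WT replicate 2, 0.326 RPKM, and the groups overlapped.

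**Figure D1:**
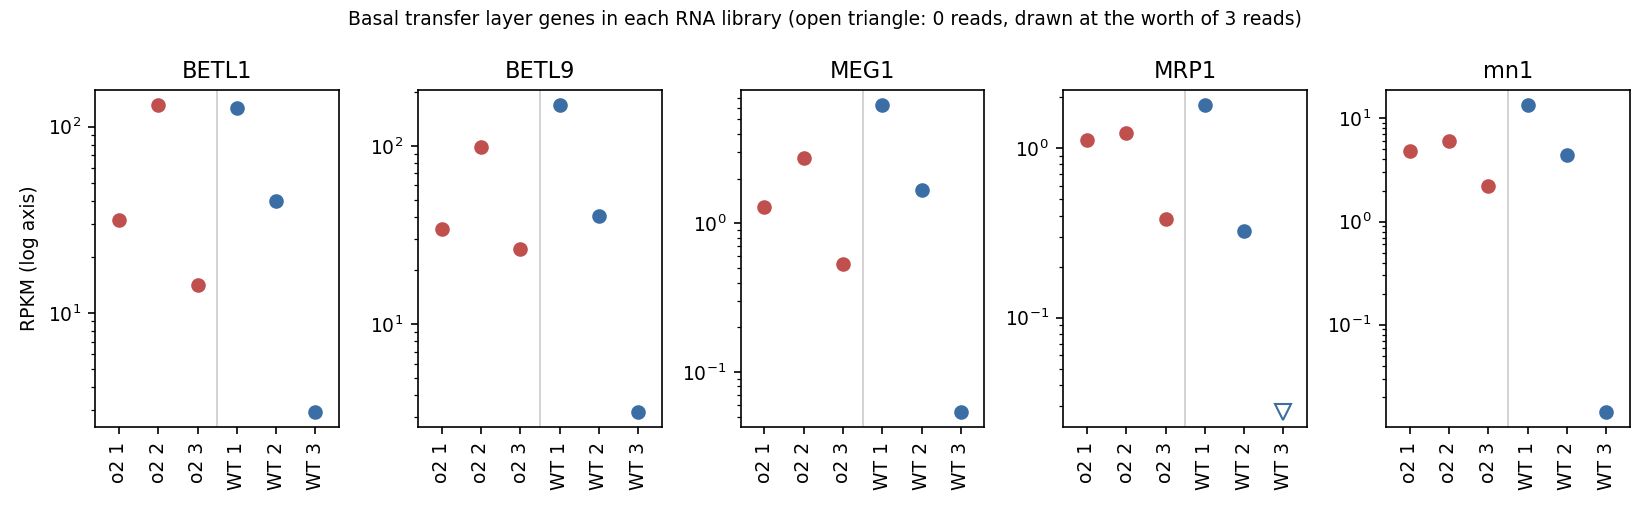
RPKM of the 5 members in each of the 3 o2 and 3 WT RNA libraries (points; log axis, scaled for each gene), with the 0 reads of MRP1 in WT replicate 3 drawn at the worth of 3 reads. In every panel o2 replicate 3 is the lowest of the o2 points and WT replicate 3 is the lowest of all.

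No member was called different between the genotypes. In a limma fit over all 18687 tested genes, 0 of the 5 members passed a Benjamini-Hochberg adjusted p of 0.05, where 3.56% of all tested genes did. At an unadjusted p under 0.05 the count was also 0 of 5 (19.2% of all tested genes), and in edgeR on the recovered reads it was 0 of 5 both with adjustment (3.47% of all genes tested there) and without (18.4% of them). The o2 and WT values overlapped for all 5 members, whereas they did not overlap for 26.1% of the tested genes.

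Fold changes are given on the log2(RPKM + 0.1) scale, as o2 over WT. BETL1 averaged 58.5 ± 62.6 RPKM in o2 and 56.4 ± 63.4 RPKM in WT (SD, n = 3 each), a log2 fold change of 0.64 ± 1.43 (SE; limma adjusted p = 0.860). BETL9 averaged 53.2 ± 40.0 RPKM in o2 and 70.8 ± 86.9 RPKM in WT (SD, n = 3 each), a log2 fold change of 0.66 ± 1.36 (SE; limma adjusted p = 0.846). The fitted value of BETL9 is positive although its mean RPKM is lower in o2.

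MEG1 averaged 1.52 ± 1.13 RPKM in o2 and 2.65 ± 3.2 RPKM in WT (SD, n = 3 each), a log2 fold change of 0.18 ± 1.31 (SE; limma adjusted p = 0.963). The mn1 gene averaged 4.38 ± 1.98 RPKM in o2 and 5.95 ± 6.82 RPKM in WT (SD, n = 3 each), a log2 fold change of 1.11 ± 1.64 (SE; limma adjusted p = 0.776). For both genes the means and the log-scale fit again pointed opposite ways. MRP1 averaged 0.907 ± 0.460 RPKM in o2 and 0.703 ± 0.950 RPKM in WT (SD, n = 3 each), a log2 fold change of 1.09 ± 1.03 (SE; limma adjusted p = 0.626).

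The precision was low. The 95% intervals of the log2 fold change ran from -2.77 to 4.04 for BETL1, from -2.58 to 3.90 for BETL9, from -2.94 to 3.30 for MEG1, from -2.80 to 5.02 for mn1 and from -1.36 to 3.54 for MRP1. A several-fold rise therefore lies inside each interval, and a several-fold fall inside each but that of MRP1, whose lower limit was -1.36. Without WT replicate 3 the log2 fold changes were -0.88, -0.88, -1.30 and -0.92 for BETL1, BETL9, MEG1 and mn1 and 0.04 for MRP1, with limma adjusted p-values of 0.433 or more. Without o2 replicate 2 the sign also turned for BETL1 (-0.24, limma adjusted p = 0.962) and MEG1 (-0.35, limma adjusted p = 0.943).

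**Figure D2:**
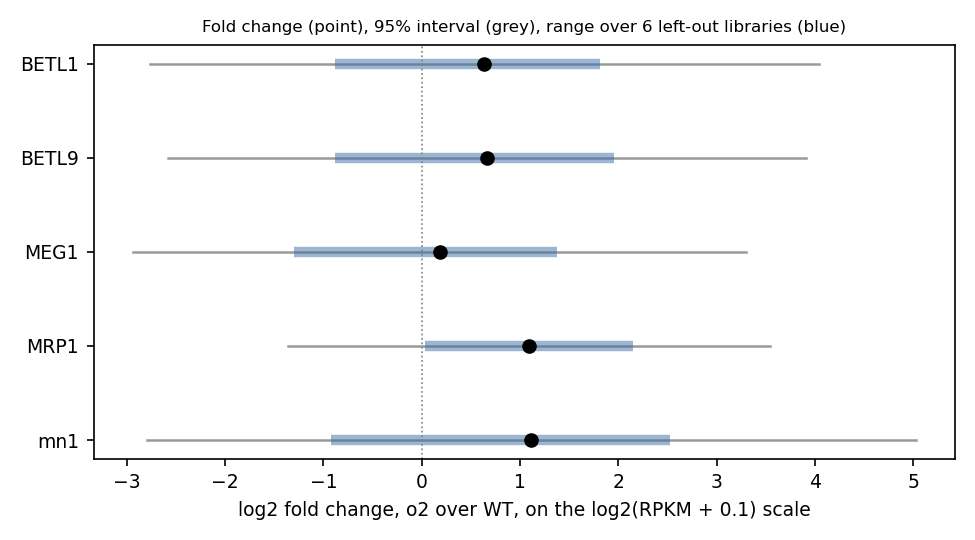
Log2 fold change of each member, o2 over WT, on the log2(RPKM + 0.1) scale (points), with the 95% limma interval (grey lines) and the range over fits that each leave out 1 of the 6 libraries (blue bars). All 5 grey intervals cross 0, and the blue bars cross 0 for all members but MRP1. Its lowest value, 0.04, was without WT replicate 3, and the size of its fold change depended on the pseudocount (2.16 with 0.01, 0.27 with 1).

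Replicate spread of the members was near the top of that of all tested genes. The SD of log2(RPKM + 0.1) in o2 was 1.62 for BETL1, 1.01 for BETL9, 1.08 for MEG1, 0.81 for MRP1 and 0.74 for mn1, against a median of 0.18 over all tested genes. In WT it was 2.75 for BETL1, 2.87 for BETL9, 2.72 for MEG1, 2.12 for MRP1 and 3.61 for mn1, against a median of 0.25. The WT values rest on replicate 3: without it the SD in WT, over 2 libraries, was 1.18 for BETL1, below its o2 value, and 1.46 for BETL9, 1.30 for MEG1, 1.52 for MRP1 and 1.11 for mn1, above theirs (median of all tested genes 0.20). In percentiles of all tested genes the members lay between 96.2 and 99.2 in o2 and between 99.3 and 99.9 in WT (98.1 to 99.2 in WT without replicate 3).

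The part of each member's sum of squares that lay between genotypes was 2.89% for BETL1, 3.43% for BETL9, 0.284% for MEG1, 6.39% for mn1 and 14.8% for MRP1, against a median of 24.7% over all tested genes. Without WT replicate 3 it was 12.2% for BETL1, 18.3% for BETL9, 33.4% for MEG1, 30.2% for mn1 and 0.0415% for MRP1, against a median of 31.5%. Relative to their genotype's mean on the log2 scale, the members stood between 0.53 and 1.75 in o2 replicate 2 and between -1.45 and -0.76 in o2 replicate 3. They stood between 2.13 and 2.82 in WT replicate 1 and between -4.06 and -2.11 in WT replicate 3, where the tested genes as a whole had median deviations of -0.02 and -0.0023.

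**Figure D3:**
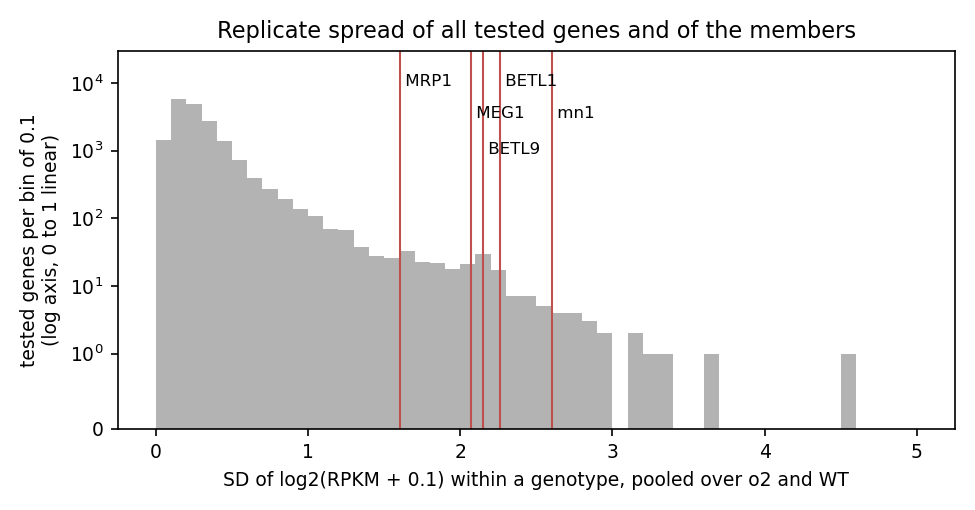
Number of tested genes (log axis, linear from 0 to 1) by SD of log2(RPKM + 0.1) within a genotype, pooled over o2 and WT in bins of 0.1 (grey bars), with the 5 members as red lines. The median tested gene had 0.23, whereas the members lie between 1.60 for MRP1 and 2.60 for mn1.

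MRP1 followed the other members across the 6 libraries. On the log2(RPKM + 0.1) scale Pearson's r with MRP1 was 0.92 for BETL1, 0.94 for BETL9, 0.92 for MEG1 and 0.94 for mn1 (6 libraries each; exact two-sided permutation p = 0.0181, 0.00972, 0.0111 and 0.00417 in that order). Adjusted over these 4 pairs, the permutation p-values were 0.0181 for BETL1 and 0.0148 for each of the others. Spearman's rho was 0.77 for BETL1, 0.83 for BETL9, 0.83 for MEG1 and 0.94 for mn1 (exact permutation p = 0.103, 0.0583, 0.0583 and 0.0167; adjusted 0.103, 0.0778, 0.0778 and 0.0667). The rank relations thus did not pass after adjustment. Over the 6 libraries, 28 to 74 of the other 18686 tested genes had a higher r with MRP1 than one of these 4 members had. This standing did not hold without WT replicate 3. There the 4 members had an r between 0.75 and 0.82, and 234 tested genes outside the members had 0.9 or more. A high r is easier to reach over 5 libraries than over 6.

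The linear relation leaned on the WT libraries at both ends. Without WT replicates 1 and 3, the libraries farthest from the median of MRP1, r was 0.62 for BETL1, 0.60 for BETL9, 0.55 for MEG1 and 0.69 for mn1 over 4 libraries, given as values with no test. Without WT replicate 3 alone, r was between 0.75 for BETL1 and 0.82 for mn1. A within-genotype r was not computed with 3 libraries a genotype. In the order of libraries the relation held at the ends: MRP1 and 3 other members were highest in WT replicate 1, BETL1 was highest in o2 replicate 2, and all were lowest in WT replicate 3. It was looser in the middle, where MRP1 was higher in o2 replicate 3 than in WT replicate 2 and each other member was lower.

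**Figure D4:**
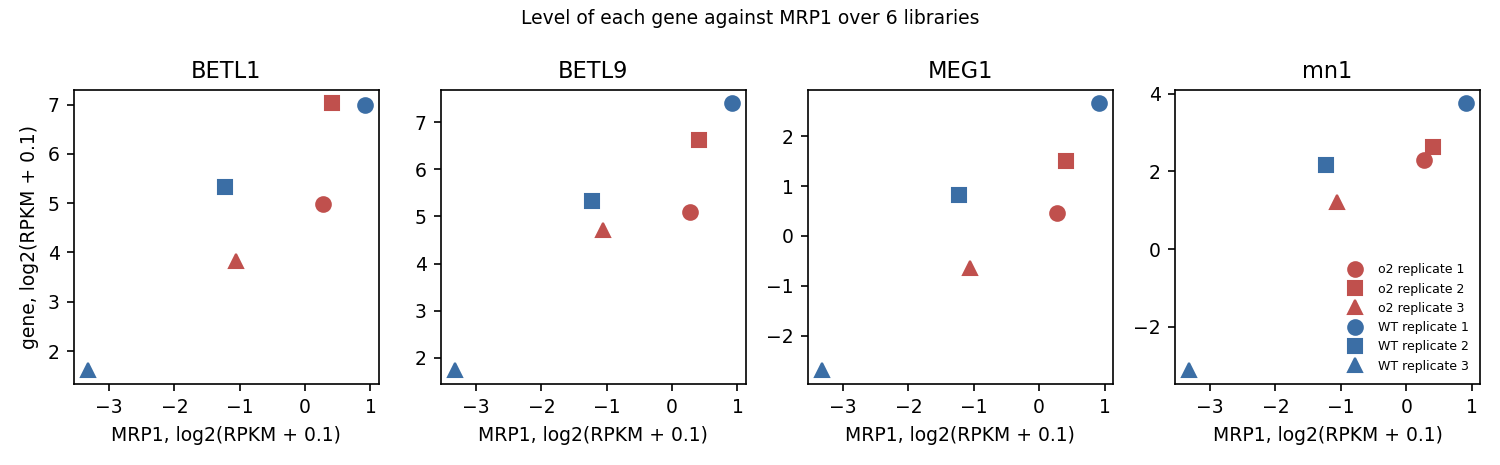
Level of BETL1, BETL9, MEG1 and mn1 against MRP1, both as log2(RPKM + 0.1), with 1 point per library (red o2, blue WT; circle, square and triangle for replicates 1, 2 and 3). WT replicate 3 lies at the lower left of each panel, and r is between 0.92 and 0.94.

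All 10 pairs of members had an r between 0.92 and 0.98 over the 6 libraries, and between 0.75 and 0.98 without WT replicate 3. BETL9 was 109%, 76.2% and 187% of BETL1 in o2 replicates 1 to 3 and 133%, 101% and 110% in WT replicates 1 to 3, a range of 2.46-fold over libraries in which BETL1 itself spanned 44.2-fold. MEG1 was between 1.84% and 4.91% of BETL1. BETL9 exceeded BETL1 in 5 of 6 libraries, with o2 replicate 2 as the exception, so the order of these neighbours did not hold beyond their spread.

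The level of the invertase gene mn1 was 15.4%, 4.67% and 15.7% of BETL1 in o2 replicates 1 to 3 and 10.6%, 11.1% and 0.485% in WT replicates 1 to 3, so mn1 was lowest relative to BETL1 in WT replicate 3, on 4 counted reads. Over the other 5 libraries its share of BETL1 ranged 3.37-fold and that of MRP1 4.33-fold. It stood above MEG1 in 5 of 6 libraries, and the exception was WT replicate 3, with 4 and 6 counted reads. MRP1, at 0 reads in WT replicate 3, was elsewhere between 0.818% of BETL1 in WT replicate 2 and 3.54% in o2 replicate 1.

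Over all 6 libraries, most of the further layer genes that could be matched had profiles like those of the members. A list of 28 further symbols of the layer matched 8 IDs in the table. Of these, 7 were tested and 0 were called in either direction. The 7 tested IDs had a median log2 fold change of 0.53 against 0.05 over all tested genes. This median includes WT replicate 3, was not computed without it, and gives no direction for the layer. In mean RPKM, betl4 alone of the tested IDs was higher in o2 (6.69 against 6.09 RPKM in WT), and the others were lower. All 7 tested IDs were lowest in WT replicate 3, and 6 of the 8 had an r of 0.9 or more with the mean profile of the members other than MRP1. This count was 4 of 8 without WT replicate 3. The 4 most abundant were both IDs of meg2, a relative of MEG1, and betl4 and betl3. Both meg2 IDs also matched the symbol meg6. As for MEG1, reads that map to several relatives make their single values uncertain.

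The meg2 ID GRMZM2G088896 had 9.73, 18.6 and 3.71 RPKM in o2 replicates 1 to 3, against 25.4, 12.7 and 0.453 RPKM in WT replicates 1 to 3. The second meg2 ID, GRMZM2G094054, had 5.84, 11.1 and 2.44 RPKM in o2 against 13.7, 5.64 and 0.181 RPKM in WT. The first ID had its libraries in the order of BETL9 and MEG1, and the second in the order of mn1. The gene betl4 (GRMZM2G073290) had 5.41, 10.9 and 3.8 RPKM in o2 against 9.12, 8.81 and 0.350 RPKM in WT. The gene betl3 (GRMZM2G175976) had 3.12, 9.44 and 1.79 RPKM in o2 against 14.2, 3.58 and 0.266 RPKM in WT.

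The IDs with a lower r, named after their values were seen, were betl2 and ebe1. The gene betl2 (GRMZM2G152655), also called bap2 after the antifungal protein it encodes, had 4.25, 5.63 and 1.2 RPKM in o2 against 6.96, 13.1 and 0.118 RPKM in WT. Unlike the members, betl2 was highest in WT replicate 2 (r = 0.896, just short of 0.9, but 0.60 without WT replicate 3). The untested gene ebe1, known from the basal endosperm, kept between 0.887 and 0.974 RPKM in o2 and between 0.835 and 0.990 RPKM in WT. It was highest in WT replicate 3, where the members were lowest (r = -0.75).

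Over all tested genes outside the members, 99 (0.530%) had an r of 0.9 or more with MRP1 and 109 (0.583%) with the mean profile of the other members, and 52 were in both groups (52.5% of the first and 47.7% of the second). Without WT replicate 3 the counts were 234 (1.25%) with MRP1 and 332 (1.78%) with the other members. These counts are over 5 libraries, where a high r is easier to reach than over 6. Among genes with a name, those most like MRP1 over the 6 libraries were the sucrose phosphate synthase gene SPS (r = 0.96), the BURP domain genes BURP7 (r = 0.96) and BURP6 (r = 0.95), meg2 (GRMZM2G094054, r = 0.95) and betl3 (r = 0.94). Those most like the mean of the other members were BURP7 (r = 0.997) and betl3 (r = 0.996), both meg2 IDs (r = 0.99 each) and BURP6 (r = 0.98). Without WT replicate 3, r with MRP1 was 0.97 for SPS and between 0.79 and 0.87 for the other 4, and r with the mean of the other members was between 0.96 and 0.99 for all 5.

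BURP7 (GRMZM2G032145) had 6.85, 16.4 and 2.05 RPKM in o2 replicates 1 to 3, against 31.9, 5.42 and 0.110 RPKM in WT replicates 1 to 3. SPS (GRMZM5G875238), an enzyme gene of sucrose synthesis, had 1.24, 1.08 and 0.447 RPKM in o2 against 2.19, 0.487 and 0.199 RPKM in WT. Like MRP1, SPS was highest in WT replicate 1 and lowest in WT replicate 3.

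Few genes of neighbouring pathways had profiles like the members. In a list of invertases and sugar transporters, 1 of 5 IDs had an r of 0.9 or more with the mean profile of the members other than MRP1, and of the 3 tested IDs 0 were called (median log2 fold change 0.11). The sucrose transporter gene sut2 had 3.65, 3.03 and 3.71 RPKM in o2 replicates 1 to 3 against 2.48, 3.08 and 3.11 RPKM in WT replicates 1 to 3. The sucrose transporter gene sut4 had 1.02, 1.2 and 0.803 RPKM in o2 against 1.52, 1.68 and 1.11 RPKM in WT. Both of these and the sugar transporter gene mst1 spanned at most 2.09-fold over the 6 libraries. The ID with the high r was the untested sucrose transporter gene sut1, chosen after its values were seen, with 0.470, 0.487 and 0.257 RPKM in o2 against 1.04, 0.662 and 0.0434 RPKM in WT (r = 0.96, or 0.86 without WT replicate 3).

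TCRR1 belongs to cytokinin-type two-component signalling. Of 17 IDs of a list of that pathway 0 had an r of 0.9 or more with the same profile (1 without WT replicate 3, the cytokinin oxidase gene ckx4, named after its values were seen). Of the 9 tested IDs 1 fell and 0 rose, with a median log2 fold change of 0.01. The one that fell was an ID of the response regulator gene rr5 (GRMZM2G032496), with 2.19, 1.91 and 1.75 RPKM in o2 against 4.14, 3.11 and 4.55 RPKM in WT (log2 fold change -0.96, limma adjusted p = 0.0414). With 1 library left out it was called in 1 of 6 fits, without WT replicate 2, and it was not called without replicate 3 of both genotypes (limma adjusted p up to 0.191 over its alternatives). The other abundant IDs of the list were not called. They were the phosphotransfer protein gene hp1 (log2 fold change -1.27, limma adjusted p = 0.179), the response regulator gene rr10 (0.21, limma adjusted p = 0.452) and the rr5 ID GRMZM6G980248 (0.28, limma adjusted p = 0.536).

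The summed levels of markers of other kernel compartments shared some of the low and high libraries of the members and not others. The summed level of the 2 embryo-surrounding region IDs (esr1 and esr6), both untested, was 1.87, 9.75 and 1.32 RPKM in o2 replicates 1 to 3 and 0.677, 13.8 and 0.571 RPKM in WT replicates 1 to 3, highest in replicate 2 and lowest in replicate 3 of both genotypes. That of the 2 embryo IDs (ole1 and glb1) was 19.5, 16.2 and 3.21 RPKM in o2 and 32.0, 104 and 57.5 RPKM in WT, lowest of o2 in replicate 3 and of WT in replicate 1, with 0 of 2 called (log2 fold changes of -2.85 and -1.43; limma adjusted p = 0.108 and 0.379).

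The 6 aleurone IDs summed to 44.4 to 52.4 RPKM in o2 and 39.7 to 71.1 RPKM in WT, lowest of all in WT replicate 3, where nkd1 had 8.10 RPKM against 18.9 and 20.6 RPKM in the other WT libraries. Of these 1 was called lower, nkd2 (limma adjusted p = 0.0476; called in 1 of 6 fits with a library left out, without WT replicate 3; not called without replicate 3 of both genotypes, with a filter on the mean RPKM or with eBayes without trend). The other abundant aleurone IDs, nkd1, vpp1 and sal1, had log2 fold changes of 0.51, -0.40 and -0.21 (limma adjusted p from 0.503 to 0.618). The r of nkd1 with the mean profile of the members other than MRP1 was 0.78, but -0.99 without WT replicate 3. The 9 starchy endosperm IDs, led by the gamma zein gene gz27, summed to 6629, 7432 and 11408 RPKM in o2 replicates 1 to 3 and to 11166, 7179 and 15263 RPKM in WT replicates 1 to 3. This sum was highest in replicate 3 of both genotypes, as were 5 of the 9 IDs, the o2 gene among them. A pbf1 ID (GRMZM2G146283, named after its values were seen) was at its lowest, 16.4 RPKM, in WT replicate 3. The other WT libraries had 20.0 and 17.5 RPKM, and this ID was at its highest, 44.2 RPKM, in o2 replicate 3. Of the 9, only the o2 gene itself was called, and gz27, wx1, sh1 and bt2 had log2 fold changes of -0.72, 0.04, -0.41 and 1.16 (limma adjusted p from 0.0700 to 0.981). No green maternal tissue marker was matched. The part of these other compartments in the spread of the transfer layer genes was not tested.

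**Figure D5:**
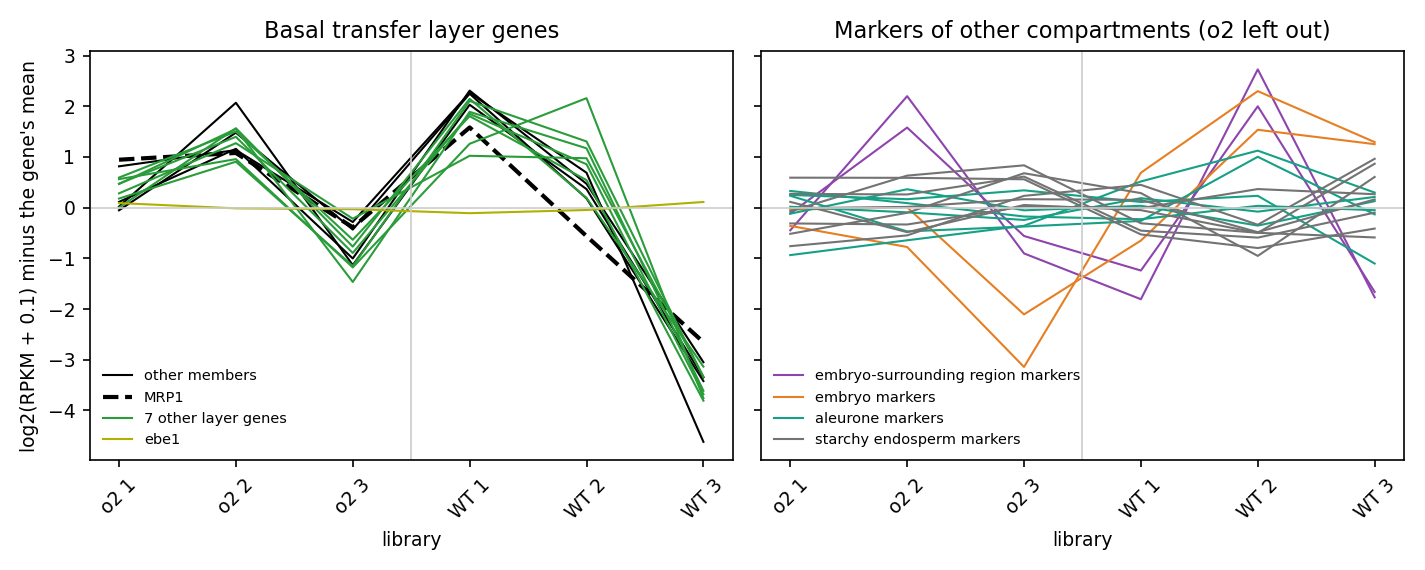
Log2(RPKM + 0.1) minus the gene's mean over the 6 libraries, for the members and 8 further IDs of the layer (left) and for markers of other compartments without the o2 gene (right), with the o2 libraries left of the WT libraries and 1 line per ID. The layer genes other than ebe1 fall together in WT replicate 3, as does the aleurone marker nkd1, while the embryo-surrounding region markers peak in replicate 2 of both genotypes and have low values in replicate 3 of both.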

How the data were processed

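The authors deposited RPKM for 28580 gene IDs, 1 column per RNA library; their scale factor is not stated. The submitters' processing notes list edgeR 3.2.4, bedtools 2.17.0, TopHat2 2.0.9, Bowtie2 2.1.0, MACS2 2.1.0.20140616 and Trimmomatic, with no roles named. A second deposited table gives read counts per library by mapping class. The peak list was not used, since no annotation of its build was given.

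The 18687 genes that reached 1 RPKM in 3 or more of the 6 libraries were fitted as log2(RPKM + 0.1) in R 4.3.3 with limma 3.58.1 (eBayes with trend), genotype as the only term, and called where the p adjusted by Benjamini-Hochberg was under 0.05. Such fold changes understate the change of low genes.

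Within a library, RPKM values of a gene are whole multiples of the worth of 1 read. Ratios shared exactly between genes gave that worth in each library, and the smallest whole-number set (tolerance at most 0.05 reads) was found for 28534 genes (99.8%). A factor common to all 6 counts would be missed. The recovered reads summed to 66156380 to 76549298 in o2 and 128443935 to 260819571 in WT, above the 52906484 to 66795114 reads of the libraries, so some reads were counted more than once. Intervals and floors cover counting error only. The quasi-likelihood test of edgeR 4.0.16 on these reads, chosen after seeing the data, called 646 genes, against 666 in limma. The read recovery and the limma fit were tested on simulated data, and the edgeR test was not.

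Names come from a reference table of Zm-B73-REFERENCE-NAM-5.0, matched by ID. That table does not hold the ID of MRP1, which is named as in the gene set, and its own MRP1 entry is a different ID that was not used. The starch branching enzyme ID that shares the symbol ae1 was left out. Named are the members, o2, the 4 most abundant tested genes of each list and any called one, and the 5 named genes most like MRP1 and most like the mean of the other members. Members and lists were chosen with earlier results of these data known.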

Additional observations from a re-analysis of the deposited data

How the results depend on the processing

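None of the 5 members was called under any alternative run (limma adjusted p from 0.303 to 0.988, edgeR from 0.789 to 0.995). Directions did not hold. With 1 library left out, the log2 fold change ran from -0.88 to 1.81 for BETL1, -0.88 to 1.95 for BETL9, -1.30 to 1.38 for MEG1, -0.92 to 2.52 for mn1 and 0.04 to 2.15 for MRP1. Without replicate 3 of both genotypes, chosen after seeing the data, it was -0.15, -0.50, -0.75 and -0.50 for BETL1, BETL9, MEG1 and mn1. In edgeR on the recovered reads it was -0.44 for BETL9, -0.83 for MEG1 and -0.47 for mn1. With a pseudocount of 1 it was -0.21 for MEG1. That of MRP1 stayed positive, but its size moved with the pseudocount: 2.16 with 0.01, 1.09 with 0.1 and 0.27 with 1 (0.32 in edgeR). The cause of these shifts was not tested. The filter on mean RPKM left MRP1 out. Of the 18687 tested genes 666 were called; the count was 1051 with no filter on low values, 98 to 777 with 1 library left out and 299 without replicate 3 of both genotypes. Pearson's r with MRP1 kept an adjusted exact permutation p under 0.05 under both other pseudocounts and all 3 rescalings (up to 0.0292). It ran from 0.88 to 0.98 there, so it was not always 0.9 or more. All these runs kept WT replicates 1 and 3, and without WT replicate 3 r was 0.75 to 0.82, with no test. With the replicate number as a block, 340 genes and no member were called, and rr5 (limma adjusted p = 0.0810) and nkd2 (0.0868) were not. Deviations of same-numbered libraries correlated at -0.02, 0.06 and 0.32 for replicates 1 to 3, and 1 of 3 o2 libraries correlated best with its own number, so the numbers were not taken as pairs. With 0 to 6 reads in WT replicate 3, depth limits MEG1, mn1 and MRP1 there.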
